A study of Mus musculus with 30 samples.

Results

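The nuclear subunits of respiratory complexes III and IV, cytochrome c and ATP synthase were followed in newborn mice lacking ERRγ and in wild-type newborns. ERRγ is the product of Esrrg, a nuclear receptor without a known natural ligand that is known for driving mitochondrial energy genes in oxidative tissues. Members were all probe sets whose array annotation gave a single symbol starting with Uqcr, Cox4 to Cox8 or Atp5, together with Cycs and Cyc1. The rule used no measured value. It found 79 probe sets of 43 genes among 22626 probe sets of 12393 genes: 16 probe sets of 9 genes for complex III, 3 of 1 gene for cytochrome c, 32 of 16 genes for complex IV and 28 of 17 genes for ATP synthase. Of the 43 genes, 20 had 1 probe set, 14 had 2, 7 had 3, 1 had 4 and Cox5b had 6.

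RNA of 5 tissues, brain, kidney, stomach, liver and salivary gland, was hybridized to Affymetrix MOE430A arrays, which hold short oligonucleotides near the 3′ end of each transcript. In each tissue 3 arrays of ERRγ null mice stood against 3 arrays of wild-type mice, 30 arrays in all. The labels give every animal as neonatal, of unknown sex and on a mixed SV129/C57BL/6 background, on standard chow with no treatment, and do not describe the null allele. Whether each array is a different animal is unstated, and p-values therefore reflect only the spread among these samples, which may be technical. Values are log2 signals, and differences are null minus wild type with the standard error of the fit. The number of arrays limits their precision.

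Complex III takes electrons from ubiquinol and passes them through the Rieske protein and cytochrome c1 to cytochrome c, a small soluble carrier. Complex IV moves them from cytochrome c to oxygen, and several of its small subunits come in tissue isoforms, one set used widely and another in heart, skeletal muscle and brown fat. ATP synthase lets protons back through a ring of c subunits, which turns the stalk inside the catalytic F1 head, while a peripheral stalk holds the head still. The mitochondrially encoded core subunits are not among the members.

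Array quality touched several results below. The single Esrrg probe set was dim in all groups, and its place relative to the deletion is unknown here, which leaves it unable to check a label; in stomach it read 6.39 to 6.56 in null and 5.93 to 6.03 in wild-type arrays (limma, adjusted p = 0.0312). The Gapdh 3′ minus 5′ difference, which grows as RNA shortens, ran from 3.53 to 3.97 in null stomach and from 2.28 to 3.11 in wild-type stomach. In liver it ran from 3.91 to 4.16 in null and from 4.25 to 4.81 in wild-type arrays, and in brain, kidney and salivary gland the genotypes overlapped. Brain null replicate 1 stood apart, with 8.92 for the skeletal muscle actin Acta1 against 4.56 to 5.38 on the other 5 brain arrays. Ucp1, of brown fat, was over 11 on 4 of 6 salivary arrays and Alb, of hepatocytes, over 10 on 2 of 6 stomach arrays, and both are given beside the results they move with. The defining markers of each labelled tissue were present, apart from those of parietal cells in null stomach. There Atp4a read 5.58, 5.33 and 5.37, near its level in the other tissues. Xist, a transcript of female cells, read 6.34 to 7.22 on null replicate 1 and 6.65 to 6.96 on wild-type replicate 3 of all 5 tissues and over 10 on all other arrays. The labels do not tie a number to an animal across tissues, and the fits over 30 arrays treat the arrays as independent.

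The promoters of 6 members are shown because the receptor is a DNA-binding protein and these genes carry the main results: the 3 genes of the c subunit, which encode the same mature protein and of which only Atp5g1 was called in any tissue, Cox7a2l, which was higher in null mice, and Uqcrc1 and Atp5h, whose null effect differed most clearly between tissues. Each run is 300 bases from RefSeq, build GRCm38.p6, 5′ to 3′ on the gene's strand, from 250 bases before the annotated start to 50 after it. Capitals mark TNAAGGTCA, the extended site that estrogen-related receptors bind, and the site of nuclear respiratory factor NRF1 (GCGC, any base, then TGCGC), both searched on either strand.
Atp5g1: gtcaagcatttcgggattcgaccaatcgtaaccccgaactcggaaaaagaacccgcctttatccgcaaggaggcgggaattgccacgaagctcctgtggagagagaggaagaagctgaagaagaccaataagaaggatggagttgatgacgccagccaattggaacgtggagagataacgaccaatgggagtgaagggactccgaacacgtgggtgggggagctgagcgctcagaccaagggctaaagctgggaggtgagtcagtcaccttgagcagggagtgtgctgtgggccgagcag
Atp5g2: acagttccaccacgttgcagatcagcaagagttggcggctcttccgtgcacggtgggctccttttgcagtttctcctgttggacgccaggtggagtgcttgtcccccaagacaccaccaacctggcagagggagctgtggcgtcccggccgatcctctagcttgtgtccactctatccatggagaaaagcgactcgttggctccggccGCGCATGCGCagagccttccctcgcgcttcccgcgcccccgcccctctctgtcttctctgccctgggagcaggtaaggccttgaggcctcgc
Atp5g3: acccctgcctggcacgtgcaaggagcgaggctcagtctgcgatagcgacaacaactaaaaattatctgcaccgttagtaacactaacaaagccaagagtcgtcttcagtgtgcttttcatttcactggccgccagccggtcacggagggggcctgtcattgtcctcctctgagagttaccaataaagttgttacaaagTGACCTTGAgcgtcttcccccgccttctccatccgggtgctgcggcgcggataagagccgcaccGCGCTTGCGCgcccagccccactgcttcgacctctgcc
Cox7a2l: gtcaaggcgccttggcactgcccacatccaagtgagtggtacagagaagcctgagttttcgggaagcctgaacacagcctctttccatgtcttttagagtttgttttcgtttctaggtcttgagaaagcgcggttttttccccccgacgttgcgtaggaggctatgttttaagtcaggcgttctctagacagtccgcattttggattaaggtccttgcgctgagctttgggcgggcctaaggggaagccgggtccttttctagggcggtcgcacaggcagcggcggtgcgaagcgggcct
Uqcrc1: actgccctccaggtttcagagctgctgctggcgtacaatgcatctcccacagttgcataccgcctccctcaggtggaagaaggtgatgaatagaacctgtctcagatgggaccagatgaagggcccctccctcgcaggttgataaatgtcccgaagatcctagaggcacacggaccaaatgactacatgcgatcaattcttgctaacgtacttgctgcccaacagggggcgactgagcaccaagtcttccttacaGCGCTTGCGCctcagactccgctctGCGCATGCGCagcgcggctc
Atp5h: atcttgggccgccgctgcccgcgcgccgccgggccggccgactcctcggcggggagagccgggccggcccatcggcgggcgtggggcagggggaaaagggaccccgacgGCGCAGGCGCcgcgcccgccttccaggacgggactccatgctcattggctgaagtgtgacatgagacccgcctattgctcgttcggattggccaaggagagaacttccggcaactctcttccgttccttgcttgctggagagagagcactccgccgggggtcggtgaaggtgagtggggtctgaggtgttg
The windows lie at chr11:96075582-96075881 on the minus strand for Atp5g1, chr15:102670998-102671297 on the minus strand for Atp5g2 and chr2:73911277-73911576 on the minus strand for Atp5g3. They lie at chr17:83514284-83514583 on the minus strand for Cox7a2l, chr9:108936398-108936697 on the plus strand for Uqcrc1 and chr11:115419870-115420169 on the minus strand for Atp5h.

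Of the 43 member genes 32 matched the promoter table, with 35 windows. TNAAGGTCA stood in 1 of the 35 windows, that of Atp5g3, and in 1.28% of all 32851 promoter windows. AAGGTCA, the core that lies inside that site, stood in 4 of 35, those of Atp5e, Atp5g3, Atp5k and Atp5l, and in 4.72% of all windows. The NRF1 site stood in 8 of 35, those of Atp5c1, Atp5g2, Atp5g3, Atp5h, Atp5k, Atp5o, Cox6a1 and Uqcrc1, and in 4.6% of all windows. These are matches of letters and show no binding. Where none was found, those letters are simply not in this window.

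Stomach held most of the differences. Of 71 member probe sets that passed the filter on low values, 21 were lower and 3 higher in null stomach at an adjusted p under 0.05, 29.6% and 4.23% of the members. Over all 13576 probe sets tested in stomach, 12.2% were lower and 11.2% higher. The 21 came from 19 genes: 11 probe sets of ATP synthase, 5 of complex III, 3 of complex IV and 2 of cytochrome c. The median null minus wild-type difference was -0.29 for ATP synthase, -0.19 for complex III and 0.03 for complex IV, against 0.03 over all probe sets tested. At an unadjusted p under 0.05 stood 35 of the 71, against 38.8% of all.

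**Figure D1:**
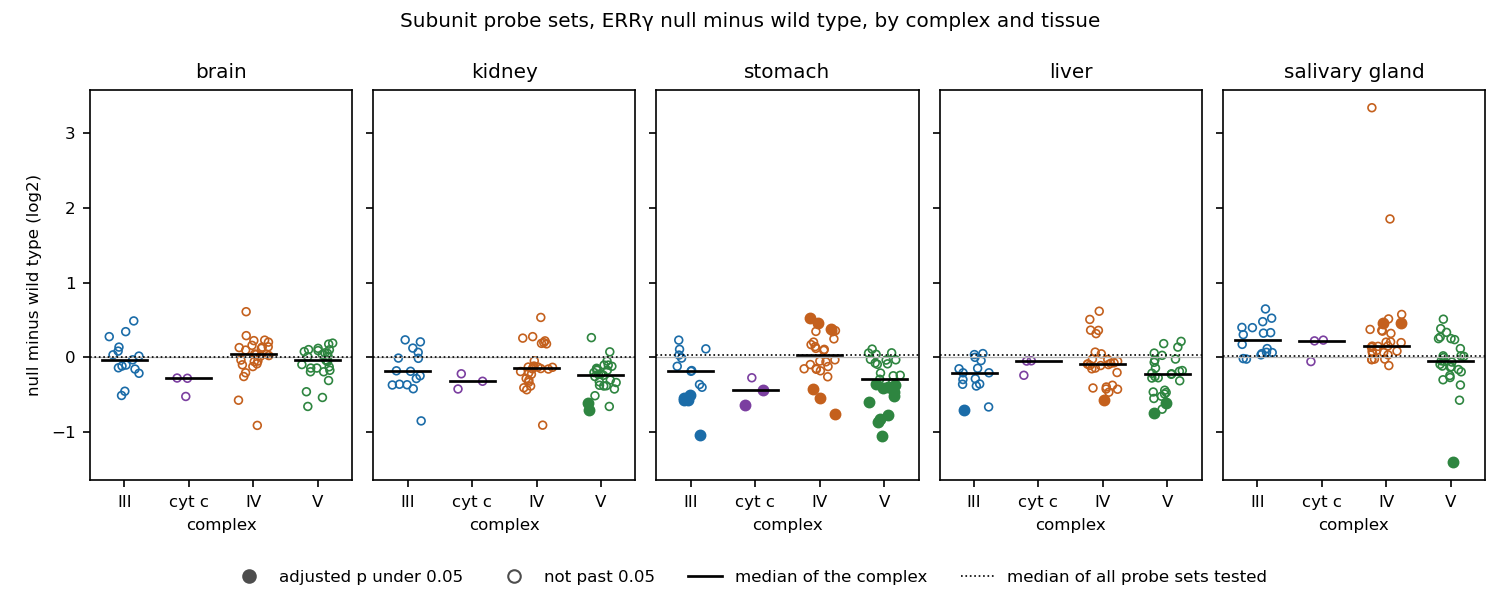
Null minus wild-type difference (log2, vertical axis) of each tested member probe set in 5 tissues, by complex (III, cytochrome c, IV, ATP synthase as V); filled points passed adjusted p 0.05, bars are complex medians and the dotted line is the median of all probe sets tested. Stomach holds 24 of the filled points, most of them below 0 in complex III and ATP synthase. The farthest point above 0 is Cox8b in salivary gland, whose wild-type mean lies under the filter level.

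Among tested probe sets of complex III the largest fall was that of Uqcrc1, a core protein of the complex. Uqcrc1 read 8.73, 8.88 and 8.35 in null stomach, against 9.68, 9.64 and 9.74 in wild-type stomach. All null arrays lay below all wild-type arrays, with a difference of -1.03 ± 0.14 (log2, SE), a 2.05-fold fall (limma, adjusted p = 0.00306). Uqcrfs1, the Rieske iron-sulfur protein, changed by -0.54 ± 0.13, Uqcrq by -0.57 ± 0.13 and Uqcr11, a small accessory subunit, by -0.57 ± 0.13. Cyc1, cytochrome c1, fell to 10.09, 10.14 and 9.88 in null stomach, against 10.57, 10.50 and 10.54 in wild-type stomach, a difference of -0.50 ± 0.098. Cytochrome c itself, Cycs, fell on 2 of its 3 probe sets, with differences of -0.64 ± 0.15 and -0.43 ± 0.12, and on the other the difference was -0.27 ± 0.15 (adjusted p = 0.201).

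In ATP synthase, subunits of the head, the ring and the stalk were all among those that fell. Atp5h, the d subunit of the peripheral stalk, read 8.83, 9.03 and 8.72 in null stomach, against 9.98, 9.84 and 9.92 in wild-type stomach. That was the largest fall among the member probe sets tested there, -1.05 ± 0.11 or 2.08-fold (limma, adjusted p = 0.00122), with no overlap. Of the catalytic head, Atp5b (β) changed by -0.77 ± 0.16, Atp5a1 (α) by -0.60 ± 0.12 and Atp5d (δ) by -0.83 ± 0.11. Atp5g1, of the c ring, read 8.26, 8.89 and 8.61 in null stomach, against 9.52, 9.34 and 9.48 in wild-type stomach, -0.86 ± 0.16. The other probe sets called in ATP synthase, of Atp5e, Atp5j2, Atp5pb, Atp5o and Atp5j, fell by between 0.36 and 0.52.

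Complex IV did not move as a block. Of its 26 tested probe sets 3 were lower and 3 higher, near the 12.2% lower and 11.2% higher of all probe sets. Cox6b1, which faces the intermembrane space, read 9.30, 9.37 and 9.33 in null stomach, against 10.16, 10.08 and 10.04 in wild-type stomach, -0.76 ± 0.091 (limma, adjusted p = 0.00184). Cox5a fell on 1 of 3 probe sets, with a difference of -0.54 ± 0.097, and Cox4i1, the widely used form of subunit 4, differed by -0.43 ± 0.078. Cox7a2l rose by 0.52 ± 0.12, Cox8c, an isoform best known from testis, by 0.46 ± 0.15 (adjusted p = 0.0482) and Cox6c by 0.38 ± 0.093. The call of Cox8c was kept in 4 of 19 alternatives, that of Cox6c in 8 and that of Cox7a2l in 11. The other 20 tested probe sets of complex IV did not pass. Leaving out an array gave 13 to 27 member calls in stomach, with 10.8% to 26.5% of all probe sets called. There were 13 without null replicate 3, with 12.3% of all, 13 without wild-type replicate 3, with 10.8%, and 15 without wild-type replicate 1, with 16.1%.

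Probe sets of one gene often gave different answers in stomach. Of 21 genes with at least 2 tested probe sets, 12 had a call, and in 11 of those another probe set of the gene did not pass. Atp5h differed by -1.05 on the probe set above and by -0.21 ± 0.11 on the other (adjusted p = 0.175). Atp5d differed by -0.83 and -0.027, Cox6b1 by -0.76 and -0.05, and Cox5a by -0.54, -0.15 and 0.17. For Atp5h, Atp5d, Atp5pb, Cox6b1, Cox5a and Cycs the probe set brightest over all arrays was not called in stomach. Atp5j2 alone was called on all its tested probe sets, at -0.46 and -0.37. The probe sets with _s_ or _x_ in their names can also bind near-identical copies, so their values are uncertain.

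**Figure D2:**
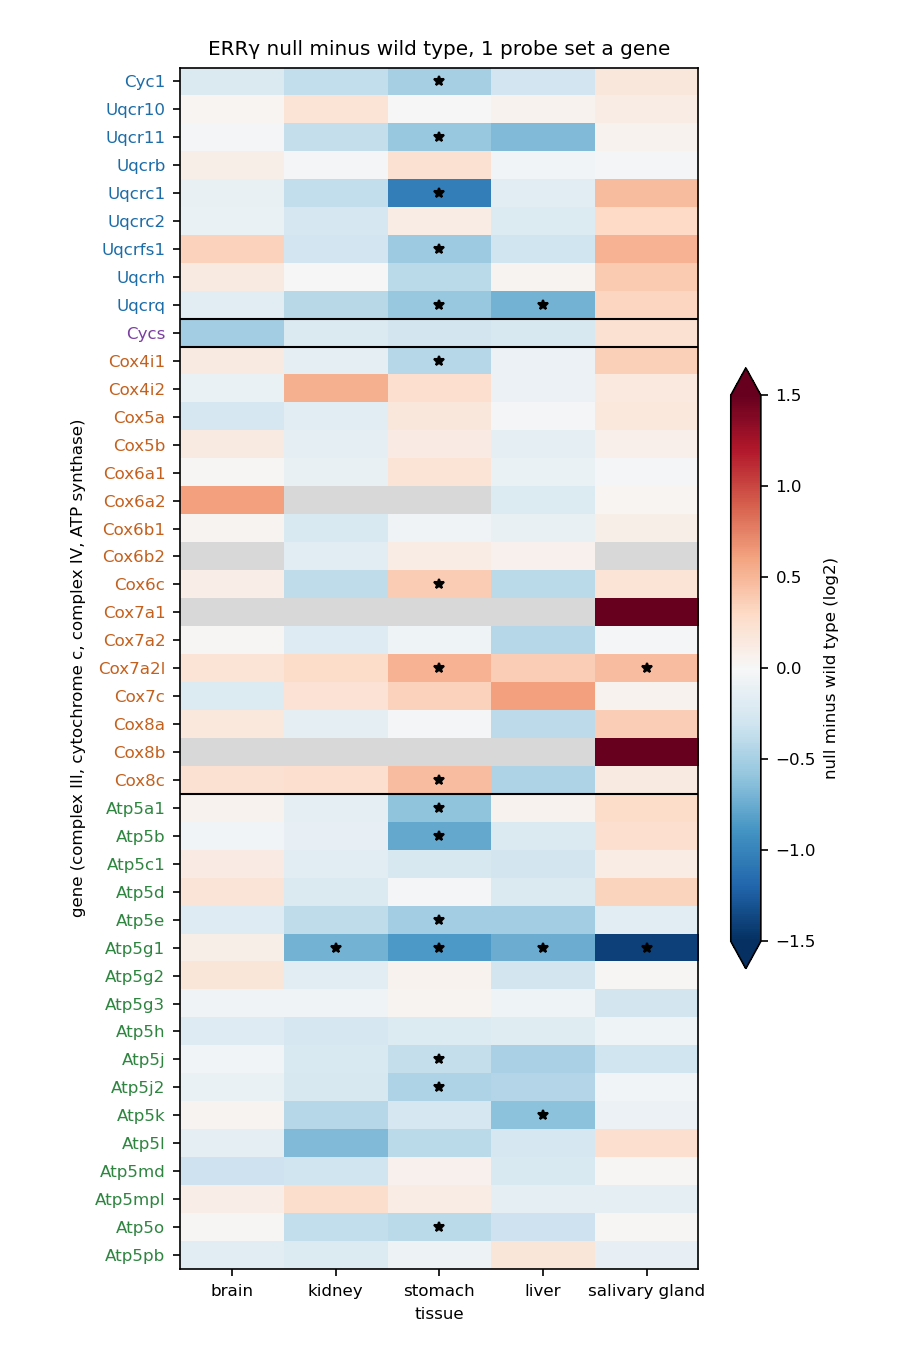
Null minus wild-type difference (log2, colour from blue for lower to red for higher, saturating at 1.5 either way) for 43 genes down the page and 5 tissues across, 1 probe set a gene, that with the highest mean over all arrays; grey marks those under the filter and stars an adjusted p under 0.05. Atp5g1 is starred in 4 tissues, and the stomach column holds most stars. Atp5h, Atp5d, Atp5pb, Cox6b1, Cox5a and Cycs carry none in stomach because the probe set shown did not pass there. Their stomach calls were on dimmer probe sets.

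Other transcripts moved with genotype in stomach beside these subunits. The summed signal of 6 parietal cell markers was 582 to 683 in null stomach and 4585 to 4940 in wild-type stomach, with 4 of the 6 called. Atp4a, of the gastric proton pump, read 5.58, 5.33 and 5.37 in null stomach, against 10.57, 10.36 and 10.46 in wild-type stomach. In bulk tissue, fewer cells of a type and less RNA per cell cannot be told apart. Hepatocyte markers summed to 2031 to 3147 in null stomach and to 2602 to 13648 in wild-type stomach, where Alb read 5.93, 10.25 and 11.90. When the 2 high-Alb wild-type arrays were left out, 0 members and 0.206% of all probe sets were called, with 1 wild-type array left and assumed to vary like the others, and Uqcrc1 differed by -1.03 (adjusted p = 0.126) and Atp5h by -1.12 (adjusted p = 0.0806). With the Gapdh 3′ minus 5′ difference as a covariate 0 members and 0.0147% of all probe sets were called, and Atp5h differed by -1.01 (adjusted p = 0.27), Uqcrc1 by -1.17 (adjusted p = 0.282), Atp5g1 by -0.54 (adjusted p = 0.561), Uqcrq by -0.39 (adjusted p = 0.621) and Cox7a2l by 0.015 (adjusted p = 0.981). Skeletal muscle markers, 165 to 228 in null and 364 to 448 in wild-type stomach, also separated the genotypes. With Ckm as a covariate 0 members were called, again against 0.0147% of all. Chief and pit cell markers summed to 9049 to 10042 in null and 7770 to 8515 in wild-type stomach. By their means 3 of these 4 were higher in null. Pgc, of chief cells, was lower, at 6.81, 6.32 and 6.63 in null and 7.93, 7.26 and 7.74 in wild-type stomach. The part of these in the subunit differences was not tested.

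In kidney the members leaned low with few calls. Of 70 tested, 2 were lower and 0 higher (2.86% lower), against 0.368% lower and 0.412% higher over all probe sets. At an unadjusted p under 0.05 stood 32 of 70, 45.7%, against 14.8% of all. Differences were below 0 for 57 of the 70, 81.4%, against 48.1% of all probe sets tested, and the median was -0.20 against 0.01. Of ATP synthase alone, 24 of 26 tested were below 0.

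The kidney calls were both of ATP synthase. Atp5g1 read 8.95, 9.14 and 8.78 in null kidney, against 9.76, 9.64 and 9.59 in wild-type kidney, with no overlap, -0.71 ± 0.12 (limma, adjusted p = 0.0292). Atp5pb, the b subunit of the peripheral stalk, read 8.11, 8.22 and 8.15 in null kidney, against 8.90, 8.79 and 8.63 in wild-type kidney, -0.61 ± 0.11 (adjusted p = 0.0403). Its other probe set differed by -0.20 ± 0.091 (adjusted p = 0.338). Next in order of p, and not past the threshold, were Cox8a at -0.91 ± 0.17 (adjusted p = 0.0502), Uqcr10 at -0.85 ± 0.18 (adjusted p = 0.0644) and Atp5k at -0.51 ± 0.11 (adjusted p = 0.075). The other tested probe sets of these genes differed by -0.13 for Cox8a, 0.21 and 0.067 for Uqcr10, and -0.10 and -0.42 for Atp5k. The kidney count depended on single arrays: leaving out an array gave 0 to 4 member calls, with 0 without null replicate 1 or without any one of the wild-type arrays, 1 without null replicate 3 and 4 without null replicate 2, where 2.17% of all probe sets were called. Proximal tubule markers, genes of a segment rich in mitochondria, summed to 1527 to 2173 in null kidney and to 2924 to 3006 in wild-type kidney, all 5 lower in null by their means and 1 called. Thick ascending limb markers, of another such segment, summed to 2651 to 2749 in null and 2906 to 3711 in wild-type kidney, with 1 of 4 called. By their means 2 of the 4 were higher in null. Umod read 9.58, 9.53 and 10.06 in null and 11.06, 10.69 and 10.49 in wild-type kidney. Slc12a1 read 10.82, 10.89 and 10.63 in null and 10.46, 10.90 and 10.41 in wild-type kidney. Salivary acinus and duct markers, 4 of 5 under the filter level, summed to 36 to 58 in null and 175 to 283 in wild-type kidney. By their means 2 of these 5 were higher in null. The gap in the sum was that of Klk1, at 4.38, 2.07 and 0.71 in null and 7.95, 7.16 and 7.32 in wild-type kidney. The part of these marker genes was not tested.

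In liver 4 of 72 tested members were lower and 0 higher, 5.56% lower, against 3.46% lower and 3.47% higher over all probe sets. Differences were below 0 for 58 of 72, 80.6%, against 47.1% of all, with a median of -0.16 against 0.03, and 21 of 72 stood at an unadjusted p under 0.05, against 22.8% of all. Uqcrq, a small subunit of complex III, read 9.81, 10.15 and 9.76 in null liver, against 10.61, 10.64 and 10.60 in wild-type liver, -0.71 ± 0.14 (limma, adjusted p = 0.0193). Its other tested probe sets did not pass, at -0.36 ± 0.27 on the farther of them. Atp5g1 read 8.91, 9.10 and 8.54 in null liver, against 9.83, 9.37 and 9.60 in wild-type liver, -0.75 ± 0.18 (adjusted p = 0.0426). Atp5k, the e subunit of ATP synthase, differed by -0.61 ± 0.15 on 1 of 3 probe sets, and Cox8a by -0.57 ± 0.14 on 1 of 2. None of the 4 overlapped between genotypes, but they were picked on the same values, so this adds nothing to the calls. Leaving out an array gave 0 calls in 5 of 6 cases, with 1.44% to 2.42% of all probe sets called, and 12 without null replicate 2, with 13.2% of all. With the Gapdh difference as a covariate, which did not overlap between genotypes in liver, 0 members and 0% of all probe sets were called. Erythroid markers, 3 of 6 on the array, summed to 4299 to 4743 in null and 3245 to 3825 in wild-type liver, with 1 called. Fat markers summed to 676 to 1250 in null and 510 to 591 in wild-type liver, with 0 called and 2 of 5 under the filter level. Most of the fat sum was Fabp4, at 10.18, 9.20 and 9.72 in null and 8.73, 8.91 and 8.91 in wild-type liver. By their means 4 of the 5 were higher in null, and Adipoq was lower. The part of these marker genes was not tested.

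Several listed regulators of respiratory genes were higher in null liver. PGC-1α, encoded by Ppargc1a, is the coactivator that works with estrogen-related receptors on respiratory genes. Ppargc1a was higher in null liver on all 5 of its probe sets, by 2.25 to 2.74, with 9.90 ± 0.56 in null and 7.16 ± 0.32 in wild-type liver on one of them (SD, n = 3, limma adjusted p = 0.00193). Ppargc1b, its relative, rose by 1.98 ± 0.30 and Esrra, the receptor ERRα, by 1.01 ± 0.185. In all, 8 of 21 tested regulator probe sets were higher and 0 lower in null liver, against 3.47% and 3.46% of all probe sets, and 5 of the 8 were those of Ppargc1a. In stomach 4 of 19 were higher and 2 lower, against 11.2% and 12.2% of all, in salivary gland 1 of 22 was higher, against 3.5%, and 0 were called in kidney or brain. No member was called higher in null liver.

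In salivary gland 1 of 74 tested members was lower and 2 were higher, 1.35% and 2.7%, against 4.72% lower and 3.5% higher over all probe sets. Here 50 of 74 lay above 0 and the median was 0.11 against 0.02, and 9 stood at an unadjusted p under 0.05, 12.2% against 23.5% of all. Atp5g1 read 7.16, 8.05 and 7.80 in null gland, against 9.34, 9.35 and 8.53 in wild-type gland. The groups did not overlap, though wild-type replicate 3 came nearest to the null arrays, and the difference was -1.40 ± 0.28 or 2.65-fold (limma, adjusted p = 0.0167). The 2 rises were both of Cox7a2l, which read 11.36, 11.33 and 11.30 in null gland, against 10.92, 10.76 and 10.92 in wild-type gland on the first probe set, 0.46 ± 0.11.

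The muscle and fat isoforms in the gland varied widely between arrays and did not pass. Cox8b, the form of subunit 8 used in heart, skeletal muscle and brown fat, read 8.05, 8.66 and 7.58 in null gland, against 3.62, 2.64 and 8.02 in wild-type gland. Cox7a1, the matching form of subunit 7a, read 7.93, 8.89 and 7.62 in null gland, against 5.80, 4.68 and 8.41 in wild-type gland. In both, wild-type replicate 3 lay among the null arrays and the groups overlapped, with differences of 3.34 ± 1.11 (adjusted p = 0.103) and 1.85 ± 0.78 (adjusted p = 0.188). The wild-type mean of Cox8b lies under the filter level of 5.37, so it entered the test through its high arrays, and none of its differences in the gland is exact. For Cox7a1 1 wild-type array lies under that level. Ucp1, the uncoupling protein of brown fat, split the arrays in the same way, at 11.31, 12.75 and 11.02 in null gland and 5.99, 4.04 and 12.14 in wild-type gland. The 5 fat markers summed to 7874 to 18649 in null and 1572 to 11621 in wild-type gland. The 8 skeletal muscle markers summed to 482 to 978 in null and 101 to 180 in wild-type gland. The 5 acinus and duct markers summed to 10701 to 16115 in null and 14801 to 18469 in wild-type gland, with 2 called. By their means 0 of these 5 were higher in null. Among them Klk1 read 7.53, 6.17 and 7.31 in null gland, against 10.38, 9.76 and 10.05 in wild-type gland. Without the 2 wild-type arrays of low Ucp1, which leaves 1, Cox8b differed by 0.077 (adjusted p = 0.967), Cox7a1 by -0.26 (adjusted p = 0.889), Atp5g1 by -0.86 (adjusted p = 0.437) and Cox7a2l by 0.41 (adjusted p = 0.533), with 0 members and 0.214% of all probe sets called. With Ucp1 as a covariate the differences were 0.45 for Cox8b (adjusted p = 0.507) and -0.15 for Cox7a1 (adjusted p = 0.847), and with Ckm, of skeletal muscle, 5.77 (adjusted p = 0.0171) and 3.56 (adjusted p = 0.0271). Their part in the result was not tested. Leaving out an array gave 0 member calls in the gland without null replicate 1 or 3 or wild-type replicate 1 or 2, 4 without null replicate 2 and 3 without wild-type replicate 3, with 2.36% to 10.1% of all probe sets called.

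**Figure D3:**
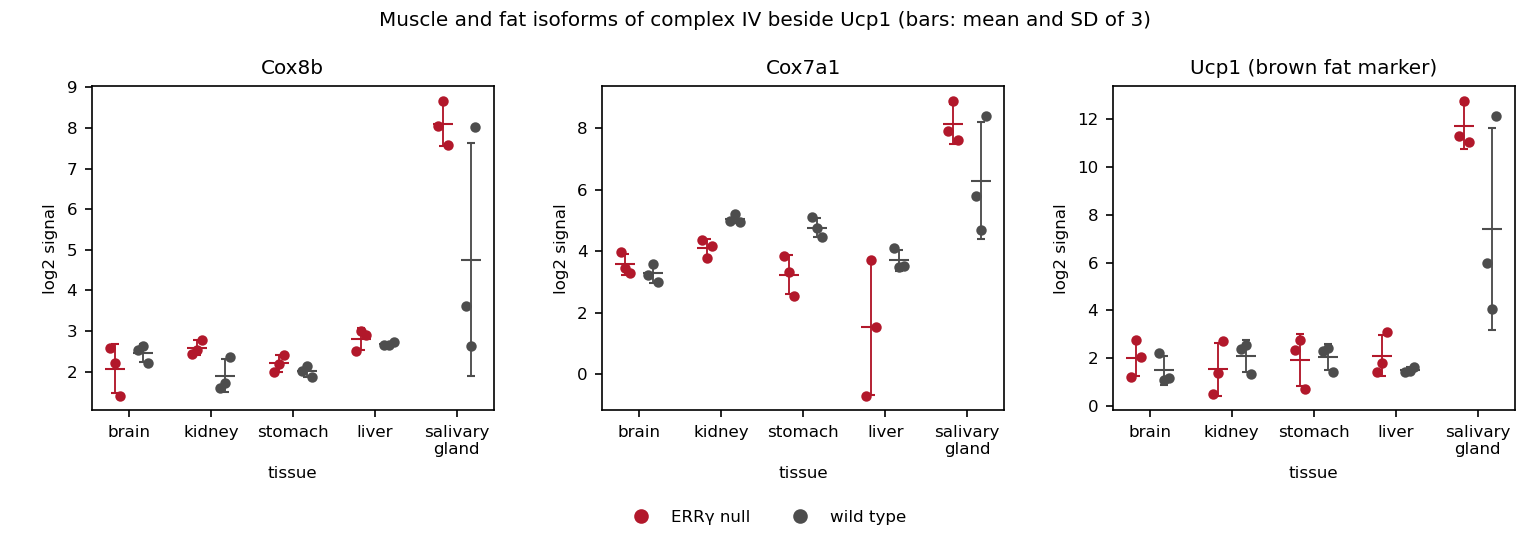
Log2 signal on each array (points; bars are mean and SD of 3) of Cox8b, Cox7a1 and the brown fat marker Ucp1 in 5 tissues, null in red left of wild type in grey. Values over 7 occur in salivary gland, where the 3 null arrays and 1 wild-type array are high, with Cox8b between 7.58 and 8.66 on those, and 2 wild-type arrays are low.

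In brain 0 of 70 tested members were called, as were 0% of all probe sets in the lower and 0% in the higher direction. At an unadjusted p under 0.05 stood 12 of 70, 17.1%, against 10.5% of all, and the median was -0.01 against 0.01. The 3 probe sets of Cycs were all below 0, between -0.52 and -0.28, with the farthest at 10.04, 10.75 and 10.38 in null brain, against 10.85, 10.98 and 10.91 in wild-type brain (adjusted p = 0.379). Atp5k had the smallest p, at -0.66 ± 0.13 (adjusted p = 0.293). Leaving out null replicate 1, the array with muscle actin, gave 0 calls, and leaving out null replicate 2 gave 3, with 0.412% of all probe sets called.

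The 3 genes of the c subunit were set side by side over all tissues. Atp5g1 was lower in null kidney, stomach, liver and salivary gland and in brain read 8.88, 9.22 and 9.23 in null, against 8.84, 9.04 and 9.18 in wild type. Over the 5 tissues its average difference was -0.73 ± 0.095, the largest fall of any member tested in that fit (limma over 30 arrays, adjusted p = 4.39e-06). Its effect differed between tissues (F = 6.4, adjusted p = 0.0139), and without brain this difference was not called (adjusted p = 0.306), nor without any one replicate number (adjusted p of 0.0609 to 0.228). Atp5g2, on its 1 tested probe set, differed by -0.28 in liver, -0.17 in kidney, 0.02 in salivary gland, 0.057 in stomach and 0.18 in brain, and none passed. Atp5g3, whose window holds TNAAGGTCA, differed by -0.27 ± 0.11 in salivary gland (adjusted p = 0.182) and by between -0.067 and 0.04 in the other 4 tissues. Whether Atp5g1 differs from these 2 genes in its response was not tested.

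**Figure D4:**
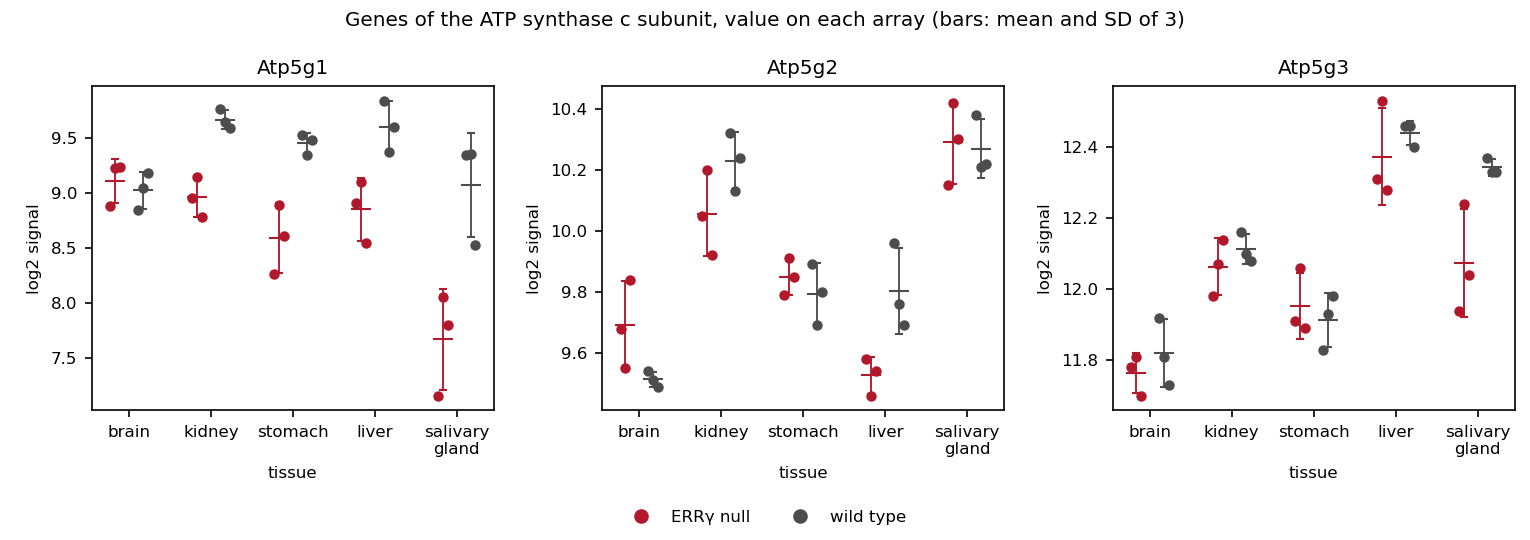
Log2 signal on each array (points; bars are mean and SD of 3) of Atp5g1, Atp5g2 and Atp5g3 in 5 tissues, null in red left of wild type in grey. For Atp5g1 every null array lies below every wild-type array in kidney, stomach, liver and salivary gland, with the lowest null value of 7.16 in salivary gland, while the genotypes overlap in brain.

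Averaged over tissues, 16 of 75 tested members were lower in null mice, from 13 genes, and 2 were higher, 21.3% and 2.67%, against 11.1% lower and 11.4% higher over all 16690 probe sets tested. The median average was -0.08, against 0.03 over all. After Atp5g1 came Atp5o, the stalk protein OSCP, at -0.42 ± 0.097 on 1 of 2 probe sets, and Uqcr10 at -0.38 ± 0.095 on 1 of 3. Atp5e, the ε subunit, stood at -0.36 ± 0.067, Atp5k at -0.35 ± 0.11, Atp5a1 on 1 of 3 probe sets, a dim one, at -0.35 ± 0.11 and Atp5j2, the f subunit, at -0.34 ± 0.087. The other probe sets of Atp5a1 stood at -0.073 (adjusted p = 0.582) and -0.037 (adjusted p = 0.685). The called probe sets of Atp5o, Uqcr10, Atp5e, Atp5k and Atp5j2 were below 0 in all 5 tissues. This is partly built in, since they were picked for a low average of the same differences. In salivary gland Uqcr10 stood at only -0.023 and the named probe set of Atp5j2 at -0.0033. In brain that of Uqcr10 lies under the filter. The count depended on which arrays entered, as did the share of all probe sets called in either direction, 22.5% with every array. It was 7 without replicate 1 of every group (11.7% of all), 28 without replicate 2 (20.3%) and 8 without replicate 3 (8.84%). It was 11 without stomach (15.5%) or without kidney (19.7%) but 32 without salivary gland (17.8%). With same-numbered arrays of a genotype as a block over the tissues, 15 members and 19.5% of all were called (consensus correlation 0.0301).

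The 2 rises on average were both of Cox7a2l, a relative of subunit 7a that is known to help complexes III and IV join into supercomplexes. On the first of its 3 probe sets the average was 0.37 ± 0.057 (limma, adjusted p = 4.48e-05) and on the second 0.32 ± 0.052 (adjusted p = 6.59e-05). The mean of Cox7a2l was higher in null mice in 5 of 5 tissues on both. With the Gapdh difference as a covariate the first differed by 0.06 in liver (adjusted p = 0.928) and 0.015 in stomach (adjusted p = 0.981), the tissues in which that measure separates the genotypes. On the first it read 10.16, 10.11 and 10.34 in null brain, against 10.05, 10.10 and 9.85 in wild-type brain, and 10.74, 10.75 and 11.19 in null kidney, against 10.62, 10.72 and 10.51 in wild-type kidney. It read 10.63, 10.42 and 10.86 in null liver, against 10.45, 10.24 and 10.13 in wild-type liver. No overlap was seen in brain, kidney, stomach and salivary gland, and liver overlapped by 1 array. The remaining probe set, open to near-identical copies, differed by -0.12 ± 0.14 in stomach.

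**Figure D5:**
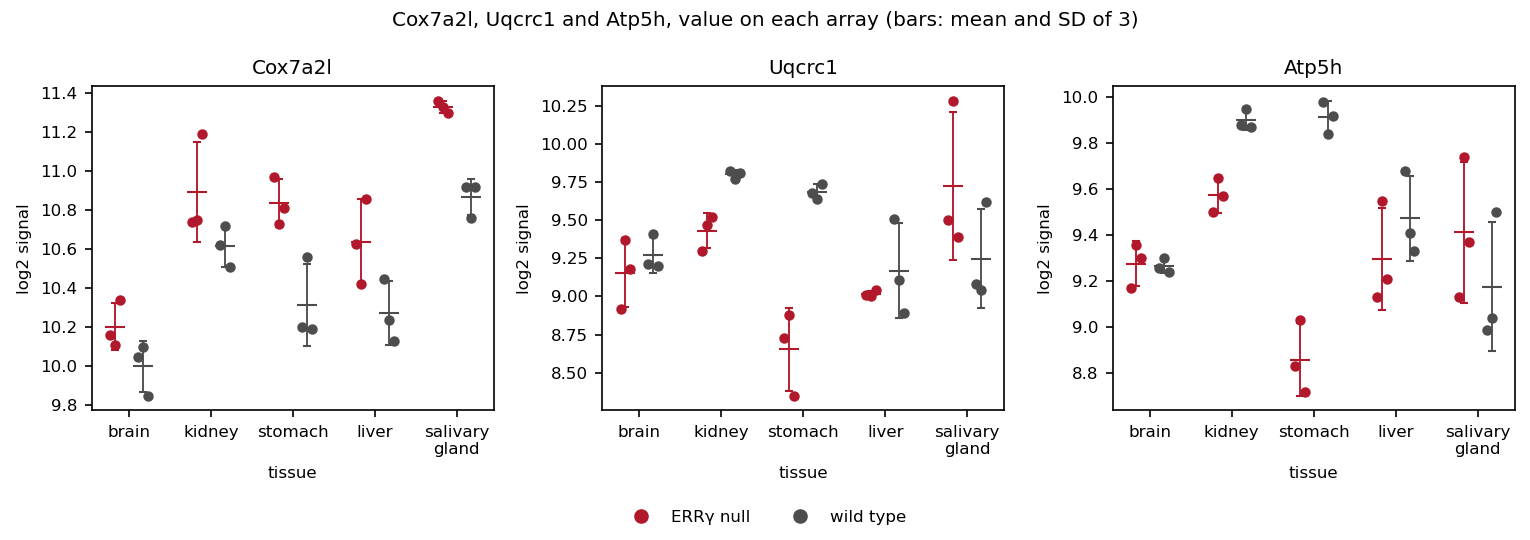
Log2 signal on each array (points; bars are mean and SD of 3) of Cox7a2l, Uqcrc1 and Atp5h in 5 tissues, null in red left of wild type in grey. Cox7a2l means are higher in null mice in all 5 tissues, while Uqcrc1 and Atp5h stand about 1 log2 unit lower in null stomach and have null means above wild-type means in salivary gland.

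The effect of genotype differed between tissues for 8 of 75 members, 10.7%, against 15.3% of all probe sets. Atp5h differed by -1.05 in stomach but by -0.33 in kidney, -0.18 in liver, 0.01 in brain and 0.24 in salivary gland (limma F test, adjusted p = 0.00066). Its other probe set differed by between -0.26 and -0.063 in the 5 tissues (adjusted p = 0.939). Uqcrc1 differed by -1.03 in stomach and 0.48 in salivary gland (adjusted p = 0.0042). Cox4i1, Uqcrfs1, 1 of 3 probe sets of Cox5a and 1 of 2 of Atp5d were also lowest in stomach and highest in salivary gland, and the other sets of Cox5a (adjusted p of 0.228 and 0.773) and Atp5d (adjusted p = 0.188) did not pass. Of the 8, 7 passed the filter in all 5 tissues. The other was Cox7a1, which passed it in salivary gland alone, so its values elsewhere lie under the filter, with a single null liver array at -0.71. With same-numbered arrays of a genotype as a block the count was 9, with 16.5% of all probe sets called, without stomach it was 1, with 6.93%, and without any one replicate number it was 1 to 5, with 2.93% to 9.45%.

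The listed partners of these complexes were counted in the same way. Of 34 tested probe sets of assembly factors in stomach, 9 were lower and 1 higher, against 12.2% and 11.2% of all probe sets there, with a median of -0.15 against 0.03 over all. Coa7 changed by -0.94 ± 0.16, Coa3, which starts the assembly of complex IV, by -0.80 ± 0.12 and Cmc2 by -0.77 ± 0.17, while Higd1a rose by 0.44 ± 0.11. Coa3 was also lower in null salivary gland, with a difference of -0.81 ± 0.12 (limma, adjusted p = 0.00597). In liver 2 of 39 were lower, against 3.46% of all, both of Cox15, which makes the haem of complex IV. In complex II 3 of 7 probe sets were lower in null stomach, with Sdhc, a membrane anchor, at -1.14 ± 0.12. Among carriers that serve ATP synthase 5 of 20 were lower in stomach, 3 of 19 in salivary gland, against 4.72% of all, and 1 of 19 in kidney, against 0.368%. In stomach the mitochondrial creatine kinase Ckmt1 had the largest fall of these carriers, with a difference of -1.46 ± 0.15.

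Levels in wild-type mice differed by tissue as well as by genotype. Each tissue was compared with the mean of the other 4 over the 15 wild-type arrays, the same probe set always against itself. Brain held 32 of 79 members lower and 3 higher, 40.5% and 3.8%, against 25.7% and 26.4% of all probe sets. Of the 32, 15 were lower in brain over the null arrays too. Stomach held 13 lower and 3 higher, 16.5% and 3.8%, against 18.8% and 15.8% of all. The 3 higher, named for being so few, were Atp5d at 0.50, Atp5h at 0.46 and Atp5a1 at 0.39, and over the null arrays the same contrasts were -0.40, -0.53 and -0.27.

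Liver held 27 of 79 higher and 8 lower, 34.2% and 10.1%, against 19.7% and 31.5% of all. All 3 probe sets of Cycs were higher in liver, by 0.41 to 0.50, and again over the null arrays, by 0.46 to 0.67. Kidney held 16 higher and 8 lower, 20.3% and 10.1%, against 18.6% and 13.3% of all, with 2 of the 16 also higher over the null arrays. Salivary gland held 14 higher and 5 lower, 17.7% and 6.33%, against 19.4% and 16.6% of all, and 10 of the 14 were higher over the null arrays. These splits moved with the scaling. After quantile normalization liver held 12 higher and 16 lower, kidney 29 and 4, stomach 5 and 8, salivary gland 10 and 9 and brain 4 and 22. Shares of all probe sets under that scaling are not given here, so these counts cannot be read as particular to the members.

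Among tissue isoforms, Cox8b in wild-type mice had means of 1.90 to 2.68 in brain, kidney, stomach and liver, all under the filter, so that no exact difference from them can be given. It was higher in salivary gland (adjusted p = 0.0143), where replicate 3 alone read high, at 8.02, and the call was lost without that replicate (adjusted p = 0.0829) and with values raised to a floor of 5 (adjusted p = 0.138). Cox7a1, also under the filter elsewhere, was higher there (adjusted p = 0.00394), again highest on replicate 3, and was called without that replicate (adjusted p = 0.0197) but not with the floor (adjusted p = 0.0511). Over the null arrays both were higher in the gland. Cox6b2, best known from testis, had wild-type means of 6.05 in liver, 5.84 in kidney, 5.31 in stomach, 4.77 in brain and 3.36 in salivary gland. Brain and salivary gland lie under the filter for Cox6b2, so that no exact difference can be given. Its higher level in liver (adjusted p = 0.00216) and lower level in the gland (adjusted p = 3.4e-05) were called over the null arrays too. Cox6a2, the muscle form of subunit 6a, was called lower in kidney (adjusted p = 0.0297), where it lies under the filter, as in stomach. That call was lost without wild-type replicate 1 (adjusted p = 0.136) or 3 (adjusted p = 0.151), with the floor (adjusted p = 0.151) and over the null arrays (adjusted p = 0.313). Its widely used partner Cox6a1 was higher in liver by 0.30, which became -0.14 with quantile normalization and -0.025 with the Gapdh difference as a covariate. Cox7a2, the partner of Cox7a1, was higher on 1 of 2 probe sets in liver, by 0.33, and in salivary gland, by 0.27. The liver value became -0.12 with quantile normalization and -0.033 over the null arrays. The same set was lower in brain, at -0.29 (adjusted p = 0.00154), which became 0.033 with quantile normalization, and both sets were lower in stomach, at -0.24 (adjusted p = 0.0107 and 0.0334). Cox8a was called in no tissue. Cox4i2, the form of subunit 4 known from lung, was called in no tissue, with means of 5.69 to 6.18. Cox7a2l stood highest in salivary gland, by 0.56, and lowest in brain, at -0.52, in wild-type mice, and the same contrasts in null mice were 0.69 and -0.72.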

How the data were processed

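The deposited values are log2 MAS5 signals, with MAS5 named per the submitters' processing notes; version and scaling target remain unstated. Base 2 was settled from the values, since the 2% trimmed mean of the linear signals then lay between 149.988 and 150.008 on all 30 arrays. Array medians ran from 5.8 to 6.08. Of 22690 probe sets, 64 controls were set aside. Symbols came from the supplied platform annotation, with a single symbol on 20380 probe sets, more than 1 on 691 and no symbol on 1555.

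In each tissue, probe sets whose mean over 6 arrays reached the 40th percentile were compared between null and wild-type mice with limma 3.58.1 in R 4.3.3 (two-sided, mean-variance trend, Benjamini-Hochberg over all tested, threshold 0.05). Of the 79 member probe sets, those under the filter numbered 9 for brain and kidney each, 8 for stomach, 7 for liver, 5 for salivary gland, with 4 under it everywhere. A fit over 30 arrays gave the average effect and tested by F whether it varied with tissue. Wild-type tissues were compared over 15 arrays with no filter. The steps were tested on simulated data.

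The members, lists and alternatives were chosen with earlier results of these data known. Named members are the tissue isoforms and carriers, up to 12 in each direction by size among those called, the 5 of smallest p where fewer than 5 were called, and up to 8 for the average and for the difference between tissues. Replicate numbers did not pair null with wild-type samples: correlations of same-numbered arrays ran from -0.24 to 0.14. Sequences are from RefSeq. Alternatives changed the floor, filter, scaling, fit, trend, replicate block, covariates (the Gapdh difference, Alb, Ucp1, Ckm) and arrays left out. Leaving out the 2 stomach arrays of high Alb and the 2 salivary arrays of low Ucp1 was chosen after seeing the data.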

Additional observations from a re-analysis of the deposited data

Results flagged for a closer look

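The effect of genotype differed between tissues for 8 of 75 tested members by the limma F test over 30 arrays. That was 10.7% of the members, against 15.3% of all probe sets tested. The adjusted p was 0.00066 for Atp5h, 0.0042 for Uqcrc1, 0.0139 for Atp5g1, 0.0227 for Cox4i1, 0.0261 for Cox5a, 0.0383 for Atp5d, 0.043 for Cox7a1 and 0.0463 for Uqcrfs1. For Cox4i1 the null minus wild-type difference was -0.43 in stomach and 0.36 in salivary gland, for Uqcrfs1 -0.54 and 0.52, and for Cox5a -0.54 and 0.57. Cox7a1 passed the filter on low values in salivary gland alone, and the other 7 in all 5 tissues. Another probe set of Atp5h had an adjusted p of 0.939, the others of Cox5a 0.228 and 0.773, and that of Atp5d 0.188. Atp5g1 alone among the 8 was lowest in salivary gland, at -1.40, and nearest to 0 in brain, at 0.09.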

How the results depend on the processing

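The count of members called, 24 in stomach, 4 in liver, 3 in salivary gland, 2 in kidney and 0 in brain, moved with the processing, and causes were not tested. In kidney it was 0 with no filter, with the fit over 30 arrays, with no mean-variance trend or with the Gapdh difference or Ckm as a covariate, 1 with quantile normalization, Alb or Ucp1, and 5 with equal medians. In stomach it was 14 with the 30-array fit, 5 with Alb, and 0 with the Gapdh difference, with Ckm or after leaving out the 2 high-Alb wild-type arrays. In liver it was 1 with no filter, equal medians or Ckm, 11 with the 30-array fit, and 0 with no trend, the Gapdh difference or Ucp1. In salivary gland it was 1 with equal medians, no trend or Alb, 7 with the 30-array fit, and 0 with Ucp1 or after leaving out the 2 low-Ucp1 wild-type arrays. With the replicate block the counts were 1 in kidney, 17 in stomach, 2 in liver, 1 in salivary gland and 0 in brain. The numbers do not pair the samples. The share of all probe sets called moved as well. With the block it was 0.781% in kidney, 18.2% in stomach, 6.21% in liver, 3.79% in salivary gland and 0% in brain. With no filter it was 0.115% in kidney and 2.33% in liver. With equal medians it was 1.18% in kidney, 5.24% in liver and 6.83% in salivary gland. With no trend it was 0.147% in kidney, 3.93% in liver and 5.63% in salivary gland. In kidney it was 0.67% with quantile normalization, 0.744% with Ucp1 and 0.339% with Ckm. With the 30-array fit it was 19.5% in stomach, 14.6% in liver, 16.2% in salivary gland and 0.273% in kidney, against 23.5%, 6.93%, 8.22% and 0.781% as reported. With Alb it was 3.71% in stomach, 5.94% in salivary gland and 1.38% in kidney, with Ucp1 1.3% in liver and 2.03% in salivary gland, and with Ckm 0.0147% in stomach and 3.65% in liver. With the Gapdh difference it was 0.0147% in stomach, 0.302% in kidney and 0% in liver. Leaving out an array gave 13 to 27 in stomach, 0 to 12 in liver, 0 to 4 in kidney, 0 to 4 in salivary gland and 0 to 3 in brain. The share of all probe sets called ran from 10.8% to 26.5% in stomach, 1.44% to 13.2% in liver and 0.0295% to 2.17% in kidney. In salivary gland it ran from 2.36% to 10.1% and in brain from 0% to 0.412%.

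The 18 members called on average became 11 without kidney or stomach, 32 without salivary gland and 15 with the replicate block within genotype. They became 7 to 28 without one replicate number. The share of all probe sets called moved from 22.5% to 19.7% without kidney, 15.5% without stomach and 17.8% without salivary gland. It was 19.5% with the block and 8.84% to 20.3% without one replicate number. The 8 that differed between tissues became 13 with quantile normalization and 5 with equal medians, no trend, the Gapdh difference or without brain. They became 1 without stomach and 1 to 5 without one replicate number. For this test the share of all probe sets moved from 15.3% to 14.8% with quantile normalization, 13.3% with equal medians and 13.5% with no trend. It was 9.75% with the Gapdh difference, 13% without brain, 6.93% without stomach and 2.93% to 9.45% without one replicate number. Atp5g1 and the first probe set of Cox7a2l kept their direction and call for the average in every alternative run.

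Of wild-type tissue levels, 35 members were called in liver, 35 in brain, 24 in kidney, 19 in salivary gland and 16 in stomach. Over the null arrays the counts were 23 in brain, 5 in kidney, 21 in liver and 33 in salivary gland, and with the Gapdh difference 23 in brain, 8 in kidney, 5 in stomach and 4 in liver. Without one replicate number they were 21 to 34 in liver, 24 to 27 in brain, 11 to 20 in kidney, 19 to 23 in salivary gland and 5 to 9 in stomach. No share of all probe sets stands beside these counts, so their moves cannot be read as particular to the members. Some levels changed sign. Over the null arrays Atp5g1 was 0.59 in brain, Cox4i1 -0.42 in stomach, Cox8a -0.39 in liver and 0.46 in salivary gland, Cox7a2 -0.033 and Cox8c -0.41 in liver, and Cycs 0.52 in salivary gland. With quantile normalization Cox7a2 was 0.033 and Cox6a1 0.22 in brain, Atp5g3 0.16 in kidney, and in liver Cox6b1 was -0.17, Cox7a2 -0.12, Cox6a1 -0.14 and Atp5g3 -0.028, with Atp5g3 at -0.049 in salivary gland. With the Gapdh difference Cox6b1 was -0.0035 and Cox6a1 -0.025 in liver.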
